A study of Drosophila melanogaster with 4 samples.

Results

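The genes described here give the photoreceptors of the Drosophila melanogaster eye their separate identities: ro, sev, boss, svp, lz, ss, B-H1, B-H2, salm and oc. They were chosen by name, and each was read from probe sets that the platform annotation assigns to that gene alone. All 10 were measured, by 12 probe sets of 18769 non-control probe sets, among 11982 genes with such a probe set. Where a gene had several probe sets, the one with the highest mean over the arrays stands for it. That was needed for svp alone, whose other 2 probe sets are given beside it.

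RNA came from eye discs of pupae about 40 h after pupariation, raised at 29 °C. The control genotype was GMR-Gal4, and the other animals carried GMR-Gal4 with UAS-Yki, so both groups expressed the yeast activator Gal4 in the eye and only the second overexpressed Yorkie (Yki). Yki is the transcriptional coactivator that Hippo signalling restrains. GMR is a promoter made of binding sites for the eye factor Glass, and it is active in cells behind the front of differentiation, photoreceptors and the cells recruited around them. There were 2 arrays in each group, called control discs and Yki discs below. The labels call them biological replicates but do not say how many animals each pooled.

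Each unit of the fly eye, the ommatidium, holds photoreceptors named R1 to R8, ringed by lens-secreting cone cells and pigment cells. R8 is founded first, R2 and R5 with R3 and R4 follow, R1 and R6 join next, and R7 is the last photoreceptor to be recruited. Transcription factors set which photoreceptor each cell becomes. A contact signal from R8, the Boss protein, acts through the receptor kinase Sevenless on the R7 precursor. Later factors choose which light-sensing rhodopsin each cell will make. Recruitment of the photoreceptors begins in the larval disc and comes before the age sampled. Whether the later choice of rhodopsin was complete by then was not tested.

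yki, the overexpressed gene, had intensities of 1285 and 1261 in control discs and 26417 and 26183 in Yki discs. Array medians over non-control probe sets lay between 79.4 and 101. Across probe sets, log2 values correlated at 0.973 to 0.975 within a group and at 0.945 to 0.962 between groups. All 5 eye disc markers examined were measured and none lay below an intensity of 16 on all arrays. Their summed intensity was 12971 and 16446 in control discs and 13970 and 17957 in Yki discs.

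Most of the specification genes were lower in Yki discs. On 7 of 10 genes, ro, sev, svp, ss, B-H1, B-H2 and salm, both Yki arrays lay below both control arrays, which held for 25.2% of all genes. boss and lz went the other way, with both Yki arrays above both control arrays. This held for 22.5% of all genes, so 2 of 10 was close to the share of all genes. The groups overlapped for oc alone. Among the 7828 genes with a mean intensity of at least 100, a bound that all 10 genes met, 31.7% were lower without overlap. The bound is on the mean of all 4 arrays. ro, sev and ss met it only through the control arrays, with Yki means of 29.8, 70.9 and 65.1. The median log2 difference of the 10 genes was -0.93, beside -0.01 over all genes. It was below 0 for 8 of the 10, against 51.0% of all genes, and -1 or lower for 4 of them, against 4.92% of all genes and 5.93% of those with a mean of at least 100. The differences ran from -2.35 (ro) to 0.92 (boss). Each difference is Yki minus control on the log2(intensity + 16) scale, where a dim probe set shows less than its true change.

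No specification gene passed limma's test at an adjusted p below 0.05 over all probe sets, which 0.0160% of probe sets did. The smallest adjusted p was 0.143, for sev. With array medians subtracted, a fit that gave every probe set the same SD and called 874 of them, ro, sev and ss passed (limma adjusted p 1.85e-06, 0.00203 and 0.00319, all lower). An unadjusted limma p below 0.05 was reached by the same 7 genes that were lower without overlap, against 8.07% of all genes that reached it in that direction and 9.89% of those with a mean of at least 100. None of the 10 reached it in the higher direction, against 7.19% of all genes. Fits without 1 array leave 1 array in a group, so only their differences are given. Without control replicate 2, those of ro, svp, B-H1, B-H2 and salm were nearer to 0 (-2.22, -0.81, -0.55, -0.82 and -0.85). Those of sev and ss were further from 0 (-1.82 and -1.67). Without Yki replicate 1 the boss and lz differences were 1.38 and 1.13. An exact permutation test of 2 arrays against 2 cannot give a two-sided p below 0.333. Each of these values describes bulk tissue, in which fewer cells of a type and less RNA per cell cannot be told apart.

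**Figure D1:**
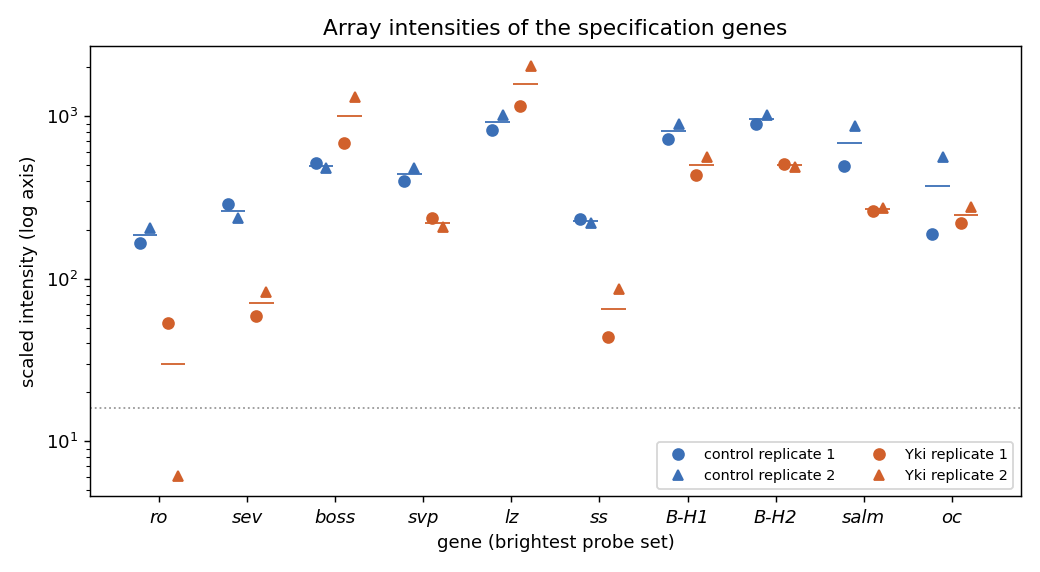
Scaled intensity (log axis) of the 10 specification genes on each of the 4 arrays. Points are arrays, horizontal bars are group means, blue is control and orange is Yki, and the dotted line marks 16, the constant added before taking logs; the Yki points sit below the control points for ro, sev, svp, ss, B-H1, B-H2 and salm and above them for boss and lz.

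The ligand and receptor of the R7 decision differed in opposite directions, though the 95% interval of the ligand gene included 0. boss, the ligand gene of R8, had intensities of 515 and 478 in control discs and 682 and 1319 in Yki discs. The control arrays were close together and Yki replicate 2 stood well above Yki replicate 1. The means were 496 ± 25.9 and 1001 ± 451 (SD, n = 2 each), a log2 difference of 0.92 (SE 0.37, 95% interval -0.03 to 1.86, limma adjusted p 0.388). It was 0.45 without Yki replicate 2 and 1.38 without Yki replicate 1.

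sev, the receptor kinase gene, had intensities of 288 and 238 in control discs and 59.3 and 82.4 in Yki discs. Both Yki arrays were far below both control arrays, and the gap between the groups was 1.37 log2 units, against a spread of 0.26 within control discs and 0.39 within Yki discs. Mean sev intensity in Yki discs was 26.9% of that in control discs (70.9 ± 16.3 against 263 ± 35.3, SD, n = 2 each). The log2 difference was -1.69 (SE 0.26, 95% interval -2.37 to -1.02, limma adjusted p 0.143), and 1.69% of genes had a lower one.

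The 95% intervals of boss and sev did not overlap. Taken within each array, the log2 ratio of sev to boss signal was -0.80 and -0.96 in control discs and -3.21 and -3.76 in Yki discs. With sev lower and boss higher without overlap, the ratio had to be lower on both Yki arrays. Its average change was -2.61. The exact permutation p of 0.333 (two-sided, the smallest possible) was thereby fixed and adds no support. The ratio sets the signals of different probe sets side by side, so only its change between arrays can be read.

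Of the factors that mark outer photoreceptors, ro had the most negative difference of the 10 genes. ro encodes a homeodomain protein required in R2 and R5. It had intensities of 166 and 204 in control discs and 53.5 and 6.13 in Yki discs. The Yki arrays disagreed with each other by 1.65 log2 units, yet both were below the control arrays. Mean intensity was 185 ± 26.5 and 29.8 ± 33.5 (SD, n = 2 each), with a log2 difference of -2.35 (SE 0.57, 95% interval -3.82 to -0.89, limma adjusted p 0.233). Only 0.759% of genes had a lower difference. Yki replicate 2 lay below the constant of 16, so the size of the difference depends on that constant: it was -3.23 with 1 and -1.45 with 64. It was also -1.53 without Yki replicate 2 and -3.18 without Yki replicate 1.

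svp encodes a nuclear receptor of the COUP family that sets the identity of R3, R4, R1 and R6. Its brightest probe set had intensities of 400 and 484 in control discs and 235 and 208 in Yki discs. The Yki arrays were about as close to each other as the control arrays, at 50.1% of the control mean (442 ± 59.6 against 222 ± 19, SD, n = 2 each). The log2 difference was -0.94 (SE 0.24, 95% interval -1.56 to -0.33, limma adjusted p 0.248).

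The other svp probe sets were dim and their groups overlapped. One had 30.2 and 62 in control discs and 40.2 and 27.2 in Yki discs (log2 difference -0.29, SE 0.34). The other had 4.18 and 23.9 in control discs and 7.98 and 9.98 in Yki discs (log2 difference -0.18, SE 0.38). The direction was the same as that of the brightest probe set, but with the mean over the 3 probe sets the svp difference was -0.47.

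lz encodes a Runt domain factor that prepares the cells that become R1, R6, R7 and cone cells, where it is known to restrain svp. It had intensities of 819 and 1022 in control discs and 1152 and 2029 in Yki discs. As with boss, the groups stood apart by a small gap, 0.17 log2 units, and Yki replicate 2 was the highest array. The means were 921 ± 143 and 1590 ± 620 (SD, n = 2 each), with a log2 difference of 0.73 (SE 0.35, 95% interval -0.17 to 1.63, limma adjusted p 0.459). It was 0.33 without Yki replicate 2 and 1.13 without Yki replicate 1. The log2 ratio of svp to lz signal was -1.01 and -1.05 in control discs and -2.22 and -3.19 in Yki discs (change -1.67, exact permutation p 0.333, the smallest possible). With svp lower and lz higher without overlap, this separation and its p were fixed and add no support.

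B-H1 and B-H2 encode closely related Bar homeodomain proteins that act together in R1 and R6 and in primary pigment cells. The genes lie side by side on the X chromosome, with 1 long non-coding RNA gene annotated between them. B-H1 had intensities of 730 and 898 in control discs and 436 and 562 in Yki discs. B-H2 had 896 and 1024 in control discs and 510 and 488 in Yki discs. Both genes were lower on both Yki arrays, B-H2 by the wider margin.

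The log2 difference of B-H1 was -0.69 (SE 0.26, 95% interval -1.37 to -0.02, limma adjusted p 0.372), with means of 814 ± 119 and 499 ± 89.5 (SD, n = 2 each). That of B-H2 was -0.92 (SE 0.23, 95% interval -1.50 to -0.34, limma adjusted p 0.239), with means of 960 ± 90.7 and 499 ± 16.1. The change of the ratio between the pair was 0.23 log2 units, and the ratio ranged from -0.29 to 0.20 over the 4 arrays. The groups overlapped for this ratio, since Yki replicate 1, at -0.22, lay between the control arrays.

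**Figure D2:**
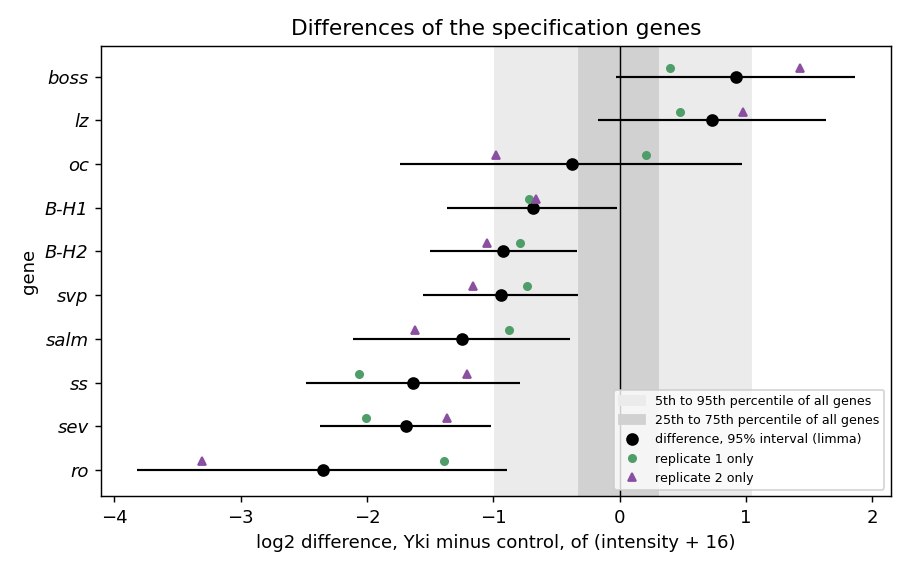
Log2 differences (Yki minus control, of intensity + 16) of the 10 specification genes, ordered by size, with 95% intervals from limma (black) and the difference within each replicate number (green and purple). The grey bands give the middle of all genes, with 5th and 95th percentiles at -0.99 and 1.04; ro, sev, ss and salm lie below the lower one, and boss and lz lie inside the upper one.

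Of the genes of late subtype choice, ss and salm were lower in Yki discs and oc overlapped between the groups. ss encodes a bHLH-PAS factor that is switched on at random in part of the R7 cells and sets their rhodopsin, and it also specifies antennal identity. ss had intensities of 234 and 221 in control discs and 43.8 and 86.4 in Yki discs. The control arrays were nearly equal, 0.07 log2 units apart, and both Yki arrays were far below them. The means were 227 ± 8.88 and 65.1 ± 30.1 (SD, n = 2 each), with a log2 difference of -1.64 (SE 0.33, 95% interval -2.48 to -0.79, limma adjusted p 0.181).

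salm encodes a zinc finger factor used in R3 and R4 and, in pupae, in R7 and R8, where it is needed for their terminal identity. It had intensities of 493 and 874 in control discs and 261 and 273 in Yki discs. Here the control arrays were spread out, by 0.81 log2 units, and the Yki arrays were close together. The means were 683 ± 270 and 267 ± 8.6 (SD, n = 2 each), with a log2 difference of -1.25 (SE 0.34, 95% interval -2.11 to -0.39, limma adjusted p 0.268). Its paralogue and neighbour salr, also with 1 long non-coding RNA gene between them, had intensities of 188 and 282 in control discs and 99.9 and 115 in Yki discs. The salr difference was -1.0 (SE 0.28, limma adjusted p 0.282), and the control arrays again differed more than the Yki arrays.

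oc, the orthodenticle homeobox gene, is needed for photoreceptor shape and for the choice of rhodopsin, and it also acts in the ocelli. It had intensities of 188 and 558 in control discs and 220 and 275 in Yki discs. Both Yki arrays lay between the control arrays, which were 1.49 log2 units apart. The log2 difference was -0.38 (SE 0.53, 95% interval -1.74 to 0.97, limma adjusted p 0.819), and its direction rested on 1 control array: it was -1.13 without control replicate 1 and 0.36 without control replicate 2. The pan-neuronal gene elav had a like control spread, with 1093 and 3323 in control discs and 2428 and 1945 in Yki discs. Relative to elav, and to chp, the oc groups no longer overlapped. Relative to the eye genes gl, so and eya they still did, with differences of -0.14, -0.60 and 0.51. These scalings are described below.

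**Figure D3:**
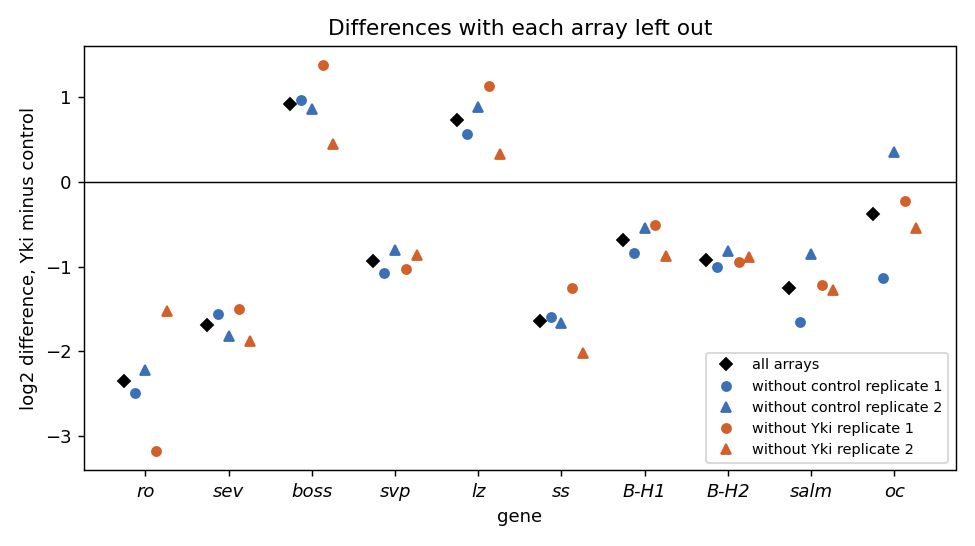
Log2 difference (Yki minus control) of each specification gene with all 4 arrays (black) and with 1 array left out (blue for a control array, orange for a Yki array). The sign stays the same for 9 of the 10 genes, while oc goes from -1.13 to 0.36.

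The specification genes were set against markers of the eye itself, array by array. gl, which encodes Glass, had 2950 and 3959 in control discs and 2456 and 3364 in Yki discs, with overlapping groups. so, a retinal determination gene, had 1000 and 1270 in control discs and 1200 and 1425 in Yki discs, and also overlapped. Relative to either gene, 7 of the specification genes were lower and 2 higher on both Yki arrays, as without such scaling. The share of all genes was not computed for this or the other markers, so these counts have no background. chp, a photoreceptor surface protein gene, was higher in Yki discs, with 3768 and 4364 in control discs and 6679 and 7749 in Yki discs (log2 difference 0.82, limma adjusted p 0.283).

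Scaling by chp lowers the difference of every gene by about 0.82, the difference of chp itself. Relative to chp, 8 of the specification genes were lower without overlap and none was higher: boss and lz overlapped, with differences of 0.09 and -0.09. Relative to elav, 7 were lower, 3 overlapped and none was higher. These are not the 7 genes above: B-H1 overlapped, while oc was lower, with log2 ratios to elav of -2.44 and -2.54 in control discs and -3.37 and -2.75 in Yki discs. eya, another retinal determination gene, had 4160 and 3529 in control discs and 1206 and 3474 in Yki discs, so that Yki replicate 1 stood apart. Relative to eya only 2 of the specification genes were lower without overlap, 2 were higher and 6 overlapped. Against each of the 5 markers sev and ss were lower on both Yki arrays without overlap. boss and lz were higher on both Yki arrays relative to gl, so and eya, and not relative to chp or elav.

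Genes that act with the specification genes were taken from 4 lists, and no gene of them passed an adjusted p below 0.05. In the list of Sevenless and Ras signalling, 13 of 19 genes were measured, with a median log2 difference of -0.09. Of these, 1 had an unadjusted limma p below 0.05 in the lower direction and none in the higher, so the share was close to the 8.07% of all genes. That gene was ebi, which promotes R7 development by lowering the Tramtrack repressor. It had 1145 and 1272 in control discs and 860 and 579 in Yki discs (log2 difference -0.76). phyl, the adaptor that targets Tramtrack for destruction, had 643 and 861 in control discs and 517 and 298 in Yki discs (log2 difference -0.89). 14-3-3zeta, a Raf-binding protein gene, had a difference of 0.48. The measured genes of this list ran from -0.89 to 0.48, all nearer to 0 than sev, and Ras85D, Raf, rl, Gap1, pnt and ttk were not analysed here.

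In the list for the founding of R8 and recruitment of outer photoreceptors, 11 of 14 genes were measured, with a median of -0.41, and 3 were lower at an unadjusted p below 0.05, against 8.07% of all genes. ato, the proneural gene that founds R8, had 527 and 606 in control discs and 189 and 122 in Yki discs (log2 difference -1.79, limma adjusted p 0.145). sens, which maintains R8 identity and restrains ro there, had 273 and 308 in control discs and 107 and 139 in Yki discs (-1.15, adjusted p 0.193). dac, a retinal determination gene, had 1707 and 2076 in control discs and 852 and 560 in Yki discs (-1.42, adjusted p 0.188). Thus ato and sens were lower on both Yki arrays, and boss, the ligand gene of R8, was higher on both. These are values of bulk tissue, and the part of R8 cells in them was not tested.

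In the list of late identity and rhodopsin choice, 11 of 15 genes were measured, with a median of -0.14. At an unadjusted p below 0.05, 3 were lower, against 8.07% of all genes, and 1, chp, was higher, against 7.19%. E(spl)mdelta-HLH, a Notch-activated repressor that marks R4, had 2779 and 3363 in control discs and 824 and 709 in Yki discs. Its log2 difference of -1.98 (SE 0.24, limma adjusted p 0.116) was more negative than that of every specification gene except ro. mirr, a dorsal eye factor, had 456 and 465 in control discs and 225 and 240 in Yki discs (-0.94, adjusted p 0.219), and salr was given above.

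In the list of cofactors and targets of lz, 7 of 8 genes were measured, with a median of -0.19. At an unadjusted limma p below 0.05, only 1 of these 7 was lower, against 8.07% of all genes. That gene was sv, the Pax2 gene of cone and pigment cells, which lz activates in cone cells. It had 102 and 180 in control discs and 61.2 and 42 in Yki discs (-1.19, adjusted p 0.282). rst, an adhesion gene of pigment cell sorting, had a difference of 0.65. The Lz partner gene Bro was below 16 on all 4 arrays, between 1.55 and 7.24, too dim for its difference of -0.19 to be read. The other partner gene Bgb had overlapping groups and a difference of -0.07.

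**Figure D4:**
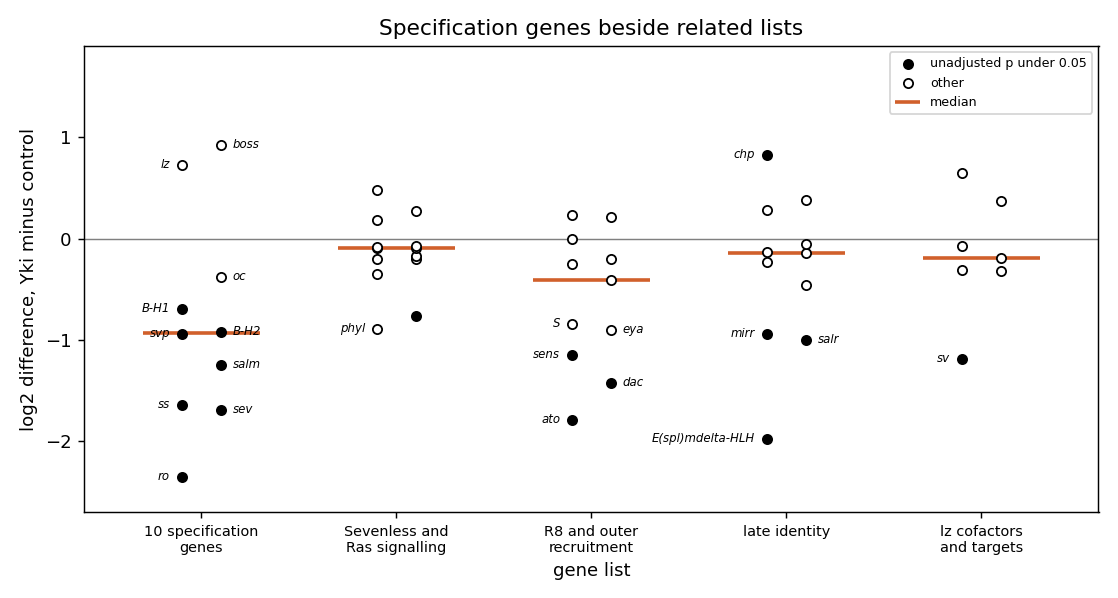
Log2 difference (Yki minus control) of each measured gene of the 10 specification genes and of the 4 related lists. Filled points have an unadjusted limma p below 0.05, open points do not, and orange bars are medians; the specification genes have a median of -0.93 and the lists have medians between -0.41 and -0.09.

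Several specification genes are also expressed outside the eye, so markers of other tissues were read beside them. Dll, dan and danr, listed as antennal markers, were lower on both Yki arrays, with differences of -1.05, -0.92 and -1.03. Whether they mark antennal tissue alone in these discs was not tested. Antp, listed with them, is a homeotic gene of the thorax and legs and marks no antennal tissue, and its difference was -1.06. The summed intensity of the 4 listed genes was 2800 and 4374 in control discs and 2106 and 1419 in Yki discs. ss and B-H1 and B-H2 are expressed in the antenna too, and the part of antennal tissue in their result was not tested.

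lz also acts in crystal cells, the blood cells that make prophenoloxidase. The crystal cell genes PPO1 and PPO2 were lower in Yki discs, PPO1 with 320 and 682 against 182 and 156 and PPO2 with 423 and 681 against 325 and 153. Over all 7 haemocyte and crystal cell markers, 6 were below 0, and the summed intensity was 2310 and 3935 in control discs and 1422 and 1454 in Yki discs. These sums include peb, which photoreceptors also express, with 991 and 1443 in control discs and 483 and 464 in Yki discs. Of the other blood cell genes, srp was lower without overlap (393 and 632 against 235 and 363). NimC1 was higher without overlap (39.4 and 39.6 against 51.3 and 80.1), and Hml and eater overlapped. The part of blood cells in the lz result was not tested.

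salm also acts in flight muscle, and muscle markers were higher in Yki discs, where salm was lower. All 4 measured of 6 muscle markers were higher without overlap, with a median log2 difference of 1.89 and summed intensities of 2588 and 6210 in control discs and 10149 and 18129 in Yki discs. The 4 neuronal markers measured had summed intensities of 2221 and 5344 in control discs and 5135 and 3656 in Yki discs. Only nSyb was higher without overlap (168 and 253 against 328 and 457), and elav, brp and fne overlapped. The 5 brain and optic lobe markers measured had sums of 950 and 1023 in control discs and 1175 and 523 in Yki discs, which overlapped. Among these, tll (249 and 114 against 40 and 57.7) and Rx (46.1 and 51.2 against 25.2 and 18.7) were lower without overlap. The groups overlapped for ap, bsh and hbn. Of 4 glial markers measured, repo, Gli and nrv2 overlapped between the groups and moody alone was higher, with 2277 and 2699 in control discs and 6491 and 7650 in Yki discs. The glial sums were 10698 and 11708 in control discs and 13758 and 18181 in Yki discs, and the list median was 0.02. In the cone and lens list, 3 of 4 genes were measured and did not move together. The lens gene Cpr72Ec was higher, with 8413 and 9124 in control discs and 17742 and 21015 in Yki discs, and makes up most of the list's sums of 8642 and 9737 in control discs and 18153 and 21334 in Yki discs. sv was lower, as given above, and ct overlapped. The tracheal gene btl lay between 13.1 and 36.6 on all arrays. The part of these tissues in the results was not tested.

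The specification genes fell into a few profiles over the 4 arrays. Likeness was measured as the root mean square distance between log2 values, each gene centred on its own mean, which describes 4 arrays and carries no test. Among the 45 pairs, svp and B-H2 were closest, at 0.05 log2 units. sev and ss were 0.15 apart, boss and lz 0.18, and B-H1 and B-H2 0.19. ro stood at least 0.81 from each of the others, its nearest being sev, and oc at least 0.45, its nearest being B-H1. The widest distance, 1.88, was between ro and boss.

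The same distance was used to find the most alike profiles among 7818 other genes with a mean intensity of at least 100. With so few arrays many genes have nearly the same profile, and most distances to the nearest genes were below 0.15. sev was nearest to Ts and to Dfd, a homeotic gene of the head, both at 0.06. ss was nearest to CG8501 and to Scr, another homeotic gene, both at 0.14, and salm to neur (0.04), a ubiquitin ligase gene of Notch signalling, and CG18213 (0.07). svp was nearest to Spt (0.02) and pbl (0.05), and B-H2 to CG8545 (0.02) and again Spt (0.03). B-H1 was nearest to CG6983 and CG14439, both at 0.05. boss was nearest to CG8814 (0.04) and CG30273 (0.05), and lz to stmA (0.03) and CG17834 (0.04). ro had no close match, with sro at 0.26 and E(spl)m4-BFM at 0.38, and oc was nearest to CG14440 (0.10) and Edc3 (0.11).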

How the data were processed

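Total RNA from each sample was biotin-labelled as cRNA and hybridised to an Affymetrix Drosophila Genome 2 array, per the labels' protocols. The deposited values are linear intensities. They came from Affymetrix Expression Console, per the submitters' processing notes, and the method that summarised the probes is not given in the sources used here. With 2% of values trimmed from either end, every array had a mean between 499.68 and 499.75, so the deposited intensity values had been scaled to a common target. Of 18952 probe sets, 183 were controls and were left out. Scaled intensities carry no read depth, and the 4 arrays limit the precision.

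Groups and replicate numbers came from the sample titles. Probe sets were named from the platform annotation, with 1 gene symbol for 13647, more than 1 for 402 and none for 4720, which stay unnamed. Of the 13647, 13544 matched a RefSeq gene table (Release 6 plus ISO1 MT), all 10 specification genes among them, and no symbol changed (0). limma 3.58.1 in R 4.3.3 (lmFit and eBayes) was run on log2(intensity + 16) over 18769 probe sets with the group as the only term, and p-values were adjusted by Benjamini-Hochberg over all of them. Residual degrees of freedom were 2, with 3.03 added by the moderation. Other lists' genes were named as the 3 smallest p-values of each list, with marker genes of each tissue in addition. The values of Bro and Bgb were seen before these 2 were named. The genes and lists were chosen with earlier results of these data known. The fit was also run on simulated data, with SDs drawn at random across probe sets. Its outcome is not reported here and no result rests on it. Alternatives were the constant, a filter on dim probe sets, the scaling, the moderation, the replicate number as a block, each array left out, the probe set used and the adjustment over genes. Figures were drawn with matplotlib 3.10.9 in Python 3.11.15.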

Additional observations from a re-analysis of the deposited data

How the results depend on the processing

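The sign of the difference was the same in every alternative tried for 9 of the 10 specification genes, and oc ran from -1.13 to 0.36 with single arrays left out, turning its sign without control replicate 2. No specification gene passed an adjusted p of 0.05 in any alternative but one: with array medians subtracted, limma called 3 (ro, sev and ss, all lower), where the moderation gave every probe set the same SD and the calls over all probe sets rose to 874. Over all probe sets 3 were called, against 0 with a constant of 1 and 42 with the filter on dim probe sets. The number was 12 with quantile normalization, 20 with trended and robust moderation, 27 with the replicate block and 12 with the adjustment over genes. With a constant of 1, 6 specification genes were lower at an unadjusted limma p below 0.05, against 5.72% of all genes. Fits with a single array left out leave 1 array in a group and assume it varies like the others, so only their differences are read. Same-numbered arrays deviated together at a correlation of only 0.0389 across probe sets. Array medians did follow the number, at 79.4 (control) and 81.1 (Yki) for replicate 1 and 97.1 and 101 for replicate 2. Whether same-numbered arrays shared a batch was not tested. With the replicate block 0 specification genes were called and 8 had an unadjusted limma p below 0.05, 7 lower and boss higher. In that fit 7.76% of all genes were lower at that level. boss was also higher at that level with array medians subtracted, quantile normalization and trended and robust moderation. The median difference of the 10 specification genes stayed between -1.10 and -0.81 in every alternative. Dim probe sets limit ro and the minor svp probe sets.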
